A study of Arabidopsis thaliana with 36 samples.

Results

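The comparison described here set seedlings without BCL7A and BCL7B against seedlings without SWI3D, with 3 RNA-seq libraries of each mutant, 6 of the 36 libraries of the series. Libraries were chosen by genotype label alone. The double mutant was labelled bcl7a-/-bcl7b-/- (bcl7ab) and the single mutant swi3d-/- (swi3d), and 3 wild-type libraries served as reference. All were Arabidopsis thaliana seedlings 12 days old, raised on Murashige and Skoog plates in days of 16 h light (23 °C) and 8 h dark (22 °C). Labels name the mutant alleles no further, and none says whether libraries of a genotype came from separate plates. The limma p-values therefore measure only the spread between libraries of a genotype, pooled over all 36 libraries. That spread may be technical.

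SWI/SNF complexes use ATP to slide or evict nucleosomes and so change which stretches of DNA are open to transcription factors. In Arabidopsis the ATPase is BRM, SYD, or one of the related pair MINU1 and MINU2, and each kind of ATPase is built into its own form of the complex. SWI3D is a scaffold subunit of the SYD form, whereas the BCL7 proteins are small subunits found in more than one form. The comparison therefore sets loss of a shared subunit against loss of a core subunit of a single form.

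Levels are given as CPM, computed from the deposited value and the library size shared by all columns; 1 CPM stands for about 23.1 reads. Recovered totals were 22805211, 23309040 and 23196628 reads for bcl7ab and 22731485, 23332127 and 23308292 for swi3d, and Pearson's r across genes between libraries of a genotype was 0.984 to 0.989. Differences are log2(value + 1) of bcl7ab minus swi3d from limma, so a positive value is higher in bcl7ab, and a gene was called at a Benjamini-Hochberg adjusted p under 0.05. Values after ± are SD with n = 3 unless marked SE.

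The mutated genes matched their labels. BCL7A (AT4G22320) was at 0.0581, 0.232 and 0.2345 CPM in bcl7ab against 6.98, 5.505 and 5.70 in swi3d. BCL7B (AT5G55210) was at 0.1045, 0.0954 and 0.233 CPM in bcl7ab against 13.4, 14.6 and 13.5 in swi3d. SWI3D (AT4G34430) stood at 34.8, 37.2 and 37.1 CPM in bcl7ab and at 8.98, 7.40 and 6.59 in swi3d, so that part of its transcript was still counted in its own mutant.

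Of 23297 genes tested, 6168 (26.5%) were called between the mutants, 3256 higher in bcl7ab (14%) and 2912 higher in swi3d (12.5%). In 5891 of the called genes the 3 libraries of one mutant all lay above the 3 of the other. The calls compare the means of these same libraries, so this count is no separate support for them. At least 2-fold differences were fewer, with 487 genes higher in bcl7ab and 899 higher in swi3d. The split depended on scaling: 52.8% of called genes were higher in bcl7ab with the deposited scaling and 24.1% with scaling by library totals, which moved the median of all genes from 0 to -0.15 and gave 1706 higher and 5382 lower. Without bcl7ab library 1 the genes higher in bcl7ab numbered 2127. Against wild type 7114 genes (30.5%) were called in bcl7ab and 5166 (22.2%) in swi3d; these comparisons share the wild-type libraries.

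**Figure D1:**
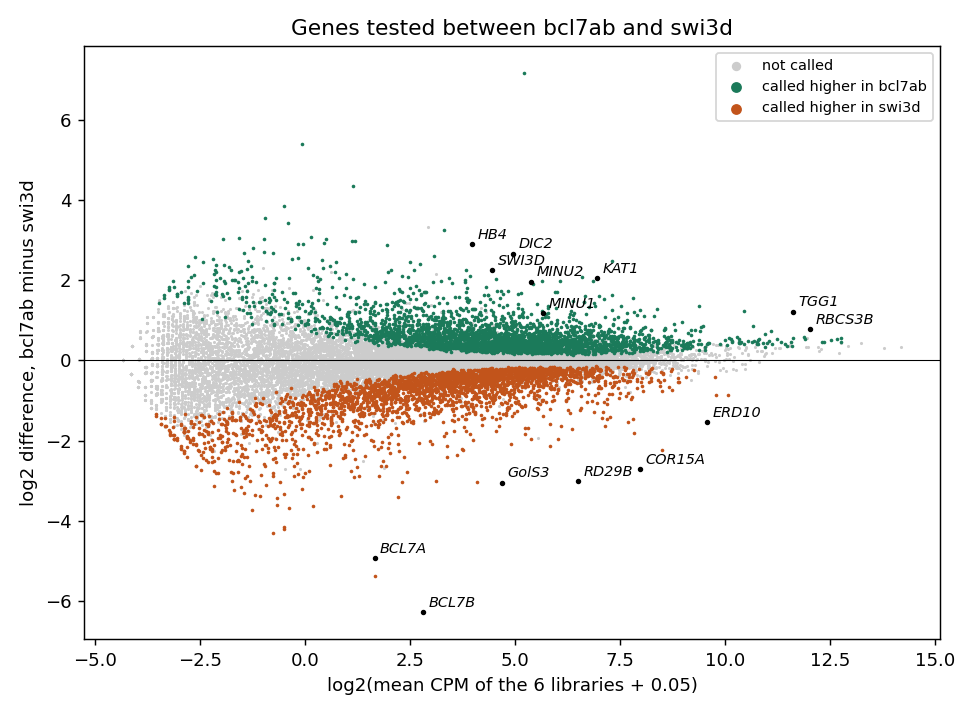
Mean level of each tested gene in the 6 libraries (x axis, log2 of CPM + 0.05) against the log2 difference of bcl7ab minus swi3d (y axis), coloured by the limma call. The mutated genes BCL7A and BCL7B lie at -4.94 and -6.28, and the cold and dehydration gene COR15A, at -2.71, is among the abundant genes highest in swi3d.

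Among the 25 SWI/SNF subunit genes, 8 were higher in bcl7ab (all genes tested: 14%) and 2 were lower. The 8 include SWI3D, the gene mutated in swi3d, and the 2 are BCL7A and BCL7B, mutated in bcl7ab. Calls of these mutated genes follow from the genotypes compared. Apart from the mutated genes, the largest differences among the called subunit genes were in the MINU ATPases. MINU2 (AT5G19310) was at 71.15, 67.9 and 60.9 CPM in bcl7ab and at 17.39, 17.1 and 16.6 in swi3d, a log2 difference of 1.96 ± 0.08 (SE) with a limma adjusted p of 6.93e-17. MINU1 (AT3G06010) was at 74.8, 73.6 and 64.0 CPM against 32.5, 30.2 and 31.1, a log2 difference of 1.17 ± 0.09 (SE) with a limma adjusted p of 5.62e-11. Every bcl7ab library lay above every swi3d library for both genes. Between swi3d and wild type neither was called (limma adjusted p = 0.967 and 0.138), at 31.3 ± 1.17 against 31.1 ± 1.04 CPM for MINU1 and 17.0 ± 0.408 against 19.2 ± 1.47 for MINU2.

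Across the 12 genotypes MINU1 was highest in bcl7ab, at 70.8 ± 5.93 CPM, followed by pms2ab at 53.9 ± 2.38 and swp73b at 48.1 ± 6.56. MINU2 was highest in pms2ab, at 85.3 ± 4.37 CPM, then bcl7ab at 66.6 ± 5.25 and swp73b at 46.4 ± 3.31. bcl7ab was lower than pms2ab for MINU2 by a log2 difference of -0.36 (limma adjusted p = 0.000498) and higher for MINU1 by 0.39 (limma adjusted p = 0.000313). BRD2, a bromodomain subunit, was at 26.0, 24.2 and 27.98 CPM in bcl7ab against 15.1, 15.3 and 14.3 in swi3d (limma adjusted p = 7.72e-06).

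The other subunit genes higher in bcl7ab besides SWI3D were SWI3A, SWP73A, BRD1 and SYS2, with log2 differences of 0.40, 0.36, 0.28 and 0.21. None of these 4 was called under scaling by library totals, where limma adjusted p was 0.0671, 0.132, 0.361 and 0.516. The ATPase genes BRM and SYD were not called, at 132 ± 3.22 against 115 ± 4.47 CPM and 146 ± 6.61 against 133 ± 9.31. Their log2 differences were 0.21 ± 0.38 and 0.13 ± 0.12 (SE), with the spread taken over all 36 libraries. For BRM every bcl7ab library lay above every swi3d library, so the missing call does not show equal levels. Under scaling by library totals 4 subunit genes were higher and 3 lower.

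Genes of the abscisic acid, cold and dehydration response were higher in swi3d than in bcl7ab. Of 23 tested members 10 were lower in bcl7ab than in swi3d (all genes tested: 12.5%) and 0 were higher (all genes tested: 14%). Their median log2 difference was -0.61 where that of all genes tested was 0. Against wild type 1 member was higher and 15 lower in bcl7ab, with a median of -1.40. In swi3d 7 were higher and 12 lower, with a median of -0.47. Most members called against wild type were thus below it in either mutant. The members called between the mutants differed from this. In swi3d RD29B, COR15A, COR15B, COR6.6, COR47 and RAB18 were called above wild type, HAI1 and ABF2 below, and RD29A and ERD10 neither. Members of the list encode, among others, hydrophilic proteins that protect cells during freezing and drying, and the regulators that switch them on. They also include phosphatases, such as HAI1, that restrain abscisic acid signalling.

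The upstream sequences of 3 of these genes, and of GolS3, a stress gene outside the list, are shown because short elements in it are the known docking sites of the factors that drive the response: ACGTG for the ABF factors of abscisic acid signalling, and CCGAC for the CBF and DREB factors of cold and drought. Each run holds the 250 bases before the RefSeq gene start on assembly TAIR10.1, 5′ to 3′ on the strand of the gene, with matches to either motif on either strand in capitals. The 4 were picked for display after their matches had been seen; GolS3 took the place of the heat genes HSP90.1 and HSP18.2, which held 0 and 1 matches to these motifs.
COR15A, chr2:17712331-17712580, strand -: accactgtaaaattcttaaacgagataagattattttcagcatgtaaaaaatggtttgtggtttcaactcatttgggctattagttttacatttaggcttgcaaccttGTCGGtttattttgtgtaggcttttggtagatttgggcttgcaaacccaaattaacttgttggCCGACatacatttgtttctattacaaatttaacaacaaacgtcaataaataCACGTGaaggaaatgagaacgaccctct
RD29A, chr5:21240467-21240716, strand +: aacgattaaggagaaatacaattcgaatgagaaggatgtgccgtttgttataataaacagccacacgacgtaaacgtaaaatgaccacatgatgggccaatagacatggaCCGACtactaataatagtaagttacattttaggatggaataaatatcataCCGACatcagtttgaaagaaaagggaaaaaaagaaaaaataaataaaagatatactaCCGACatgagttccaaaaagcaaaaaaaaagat
RD29B, chr5:21236771-21237020, strand +: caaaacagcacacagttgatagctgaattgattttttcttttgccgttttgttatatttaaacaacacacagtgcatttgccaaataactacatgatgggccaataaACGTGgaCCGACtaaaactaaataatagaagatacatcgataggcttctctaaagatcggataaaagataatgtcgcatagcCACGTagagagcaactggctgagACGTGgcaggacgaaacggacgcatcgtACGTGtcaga
GolS3, chr1:3019389-3019638, strand +: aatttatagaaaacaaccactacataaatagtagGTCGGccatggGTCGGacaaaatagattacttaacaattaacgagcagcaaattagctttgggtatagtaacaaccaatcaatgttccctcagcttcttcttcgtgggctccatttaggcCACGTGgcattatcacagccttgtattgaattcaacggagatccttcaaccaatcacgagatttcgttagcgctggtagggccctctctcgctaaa
CCGAC was found 3 times before RD29A, 2 times before COR15A and before GolS3, and 1 time before RD29B. ACGTG was found 4 times before RD29B, and 2 times before COR15A and before GolS3, where the matches are the overlapping strands of a CACGTG. Over all 23296 tested genes with such a window, CCGAC was present in 12.5% and ACGTG in 23.8%. Among the 23 list members the shares were 21.7% and 52.2%, and among the 13 heat shock members 7.69% and 46.2%. For all genes higher in swi3d they were 13.5% and 27.4%, and for all genes higher in bcl7ab 11% and 22.4%. A match describes the sequence and does not show binding.

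**Figure D2:**
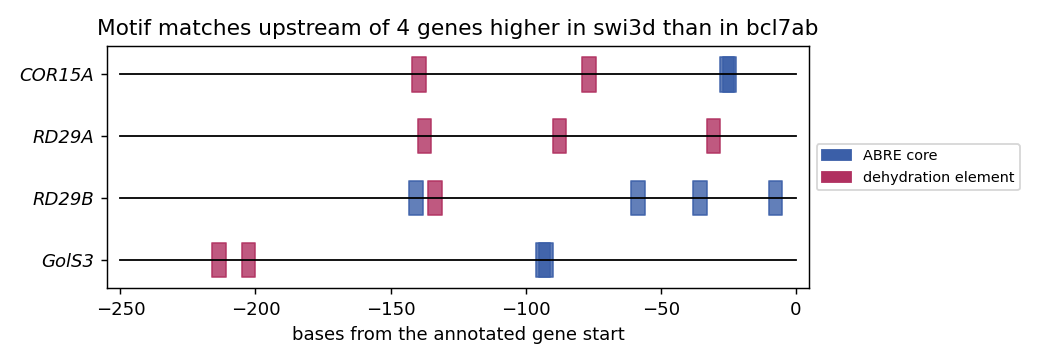
Position of each match in the 250 bases before the annotated gene start (x axis, bases) for 4 genes higher in swi3d, with ACGTG (ABRE core) and CCGAC (dehydration element) in separate colours. RD29A holds 3 dehydration elements and RD29B 4 ABRE cores.

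COR15A, a chloroplast protein that stabilises membranes on freezing, was at 74.7, 79.0 and 47.35 CPM in bcl7ab and at 329, 532 and 449 in swi3d, with wild type between them at 174, 200 and 147. The log2 difference was -2.71 ± 0.33 (SE; limma adjusted p = 4.88e-07). RD29A was at 122, 145 and 101 CPM in bcl7ab and 351, 731.5 and 721 in swi3d, a difference of -2.23 ± 0.29 (SE; limma adjusted p = 1.5e-06). In both genes the lowest swi3d library was library 1, and the mutants did not overlap.

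RD29B was at 19.3, 25.01 and 13.0 CPM in bcl7ab against 76.4, 202 and 211 in swi3d. Outside the list, GolS3, which makes galactinol for protective sugars, was at 3.83, 5.32 and 6.09 CPM against 19.95, 57.45 and 63.2. The dehydrin gene ERD10 was at 366.5, 386 and 389.5 CPM against 784, 1274 and 1370, and wild type at 1044 ± 60.3 was near swi3d. RAB18, another dehydrin, was at 26.98 ± 10.25 CPM in bcl7ab and 103 ± 24.3 in swi3d, and COR6.6 and COR47 differed by -0.92 and -0.85.

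HAI1, a phosphatase that restrains abscisic acid signalling, was at 2.91, 4.47 and 3.55 CPM in bcl7ab against 9.20, 23.8 and 29.65 in swi3d, and at 71.9 ± 8.10 in wild type. The remaining called members of the list were COR15B and ABF2, which without swi3d library 2 had limma adjusted p values of 0.102 and 0.0592. The cold regulators CBF1, CBF2 and DREB1A were not called between the mutants: CBF1 was at 2.96 ± 0.964 and 2.64 ± 1.01 CPM, where wild type was at 24.4 ± 2.14. Also outside the list, the dehydrin gene LTI30 was at 17.3, 16.2 and 17.42 CPM against 50.2, 71.2 and 79.1, and HIS1-3, a linker histone induced by drought, at 2.91, 4.47 and 3.69 against 32.9, 35.3 and 23.5.

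**Figure D3:**
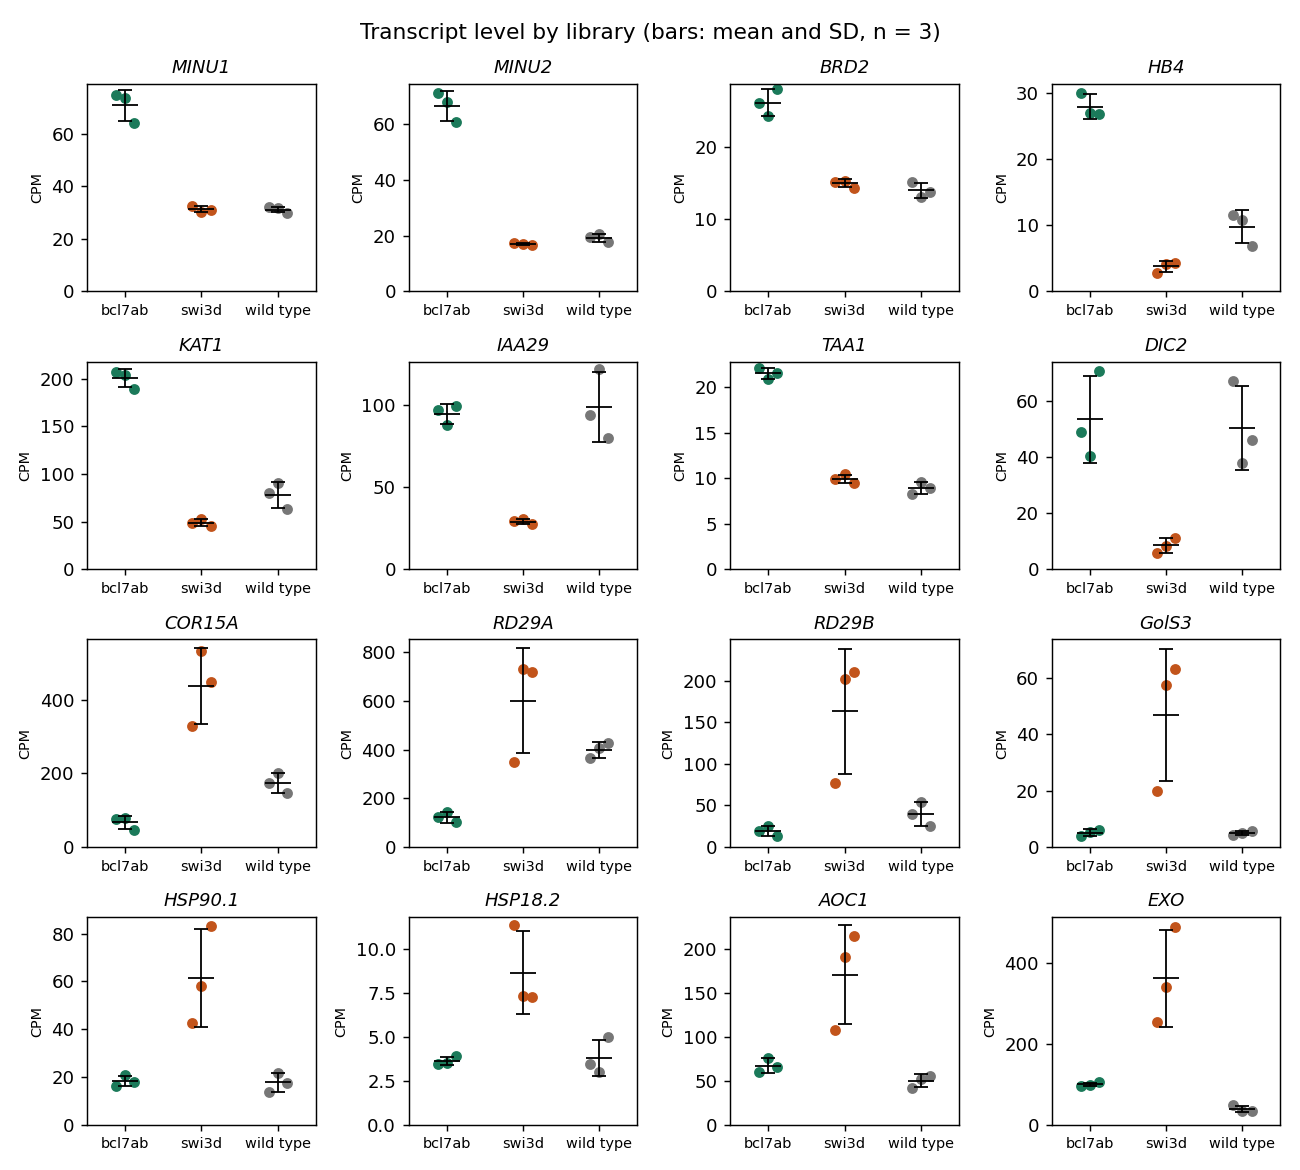
CPM of 16 genes in each library of bcl7ab, swi3d and wild type (y axis from 0), with points for libraries and bars for mean and SD, n = 3. MINU1 and MINU2 stand higher in bcl7ab than in swi3d and wild type, and COR15A lies above wild type in swi3d and below it in bcl7ab.

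Heat shock genes were also higher in swi3d: 9 of 13 tested members were lower in bcl7ab (all genes tested: 12.5%) and 0 higher, with a median of -1.21. Their products are chaperones that hold or refold damaged proteins. HSP90.1 was at 16.4, 20.8 and 17.95 CPM in bcl7ab and 42.7, 58.0 and 83.4 in swi3d (-1.69 ± 0.28 SE; limma adjusted p = 4.15e-05), where wild type was at 13.8, 21.8 and 17.63. HSP70 (AT3G12580) was at 49.4 ± 4.56 CPM against 101 ± 28.8, and the small chaperone HSP18.2 at 3.445, 3.55 and 3.92 against 11.4, 7.36 and 7.27. Against wild type 0 members were called in bcl7ab and 10 were higher in swi3d. Library 3 of swi3d was the highest for HSP90.1 and HSP70, and without it 5 members remained called. The heat element GAANNTTC was in 38.5% of the list's windows and 9.38% of all, with 0 matches before HSP90.1 or HSP18.2; HSP90.1 has no annotated 5′ untranslated region, so its window may not end at the true start.

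Jasmonate genes followed the same direction between the mutants, with 10 of 23 tested members lower in bcl7ab (all genes tested: 12.5%) and a median of -0.56. Against wild type they were mixed: 2 members were higher and 9 lower in bcl7ab, and 8 were higher and 6 lower in swi3d. The lower members included the repressor genes JAZ2, JAZ5, JAZ6, JAZ7 and JAZ9, by -0.56, -1.37, -0.53, -2.19 and -0.77. JAZ5 and JAZ6 lost the call without swi3d library 3 or bcl7ab library 1. JAZ9 lost it without swi3d library 2 or 3 or any bcl7ab library, with limma adjusted p of 0.0599 to 0.169. Only 1 member was higher, the repressor gene JAZ3 (limma adjusted p = 0.0519 without swi3d library 1). The biosynthesis gene OPR3 was at 37.3, 52.5 and 47.35 CPM in bcl7ab against 93.2, 114 and 115 in swi3d (-1.24 ± 0.23 SE; limma adjusted p = 0.000171). AOC1, in the same pathway, was at 60.1, 76.35 and 65.5 CPM against 108, 191 and 215, and AOC3 at 6.06, 9.20 and 9.27 against 13.8, 16.9 and 24.03. The count of lower members was 5 without bcl7ab library 1 and 6 without swi3d library 3.

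Auxin genes showed the opposite direction. Of 22 tested members 12 were higher in bcl7ab (all genes tested: 14%) and 1 lower, with a median of 0.57. Leaving out single libraries gave 10 to 12 higher. Several encode synthesis enzymes. TAA1, the first enzyme of the main route, was at 22.1, 20.9 and 21.6 CPM in bcl7ab against 9.89, 10.4 and 9.52 in swi3d (1.11 ± 0.14 SE; limma adjusted p = 6.13e-07). YUC9, of the next step, was at 32.1, 33.4 and 29.8 CPM against 9.80, 12.6 and 10.4, and YUC8 at 24.6, 22.8 and 28.2 against 9.63, 12.2 and 10.8. The response gene IAA29 was at 96.7, 87.7 and 99.3 CPM against 29.15, 30.25 and 27.25, with wild type at 98.6 ± 21.2. Among the transporters PIN4, PIN7 and AUX1 were higher in bcl7ab, by 0.61, 0.62 and 0.56. Against wild type 6 members were higher and 2 lower in bcl7ab, and 0 were higher and 10 lower in swi3d.

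HB4, a homeodomain factor of shade-induced growth, was at 30.1, 27.02 and 26.9 CPM in bcl7ab against 2.82, 4.18 and 4.34 in swi3d (2.90 ± 0.26 SE; limma adjusted p = 2.11e-09), with wild type between them at 9.77 ± 2.53. KAT1, a potassium channel of guard cells, was at 207, 204.5 and 189.6 CPM against 48.0, 53.0 and 45.3. DIC2, a mitochondrial carrier, was at 48.9, 40.55 and 70.9 CPM against 5.81, 8.32 and 11.3, and wild type, at 50.3 ± 15.1, was near bcl7ab.

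Photosynthesis genes were higher in bcl7ab in 12 of 20 tested members (all genes tested: 14%), lower in 0, with a median of 0.47. RBCS3B, a small subunit of Rubisco, was at 6020, 5280 and 4625 CPM against 3233, 3290 and 2788. The calls depended on the fit and on single libraries: 2 were left in the fit of 3 genotypes, 6 under scaling by library totals, 3 without bcl7ab library 1, 4 without swi3d library 3 and 5 without swi3d library 1. The summed level of the list was 129429 to 147068 CPM in bcl7ab, 95708 to 110982 in swi3d and 85242 to 124828 in wild type. TGG1, a myrosinase of guard cells and myrosin cells, was at 4494, 4501 and 4343 CPM against 1877, 1918 and 1944.

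Marker genes of cell types differed as well, and in whole seedlings fewer cells of a type and less RNA per cell cannot be told apart. Of 7 stomatal lineage genes 4 were higher in bcl7ab and 0 lower; the receptor-like gene TMM was at 17.9, 18.9 and 16.3 CPM against 9.37, 9.29 and 7.86, and SPCH, which starts the lineage, at 5.78 ± 1.07 against 3.06 ± 0.724. The list summed to 42.7 to 52.8 CPM in bcl7ab, 24.4 to 29.6 in swi3d and 28.1 to 42.5 in wild type. Root hair markers summed to 135 to 175 CPM in bcl7ab, 199 to 244 in swi3d and 80.7 to 139 in wild type, with 3 of 9 lower in bcl7ab. Endodermis markers summed to 114 to 139 CPM in bcl7ab and 144 to 155 in swi3d, with 3 of 8 lower in bcl7ab. The wild-type endodermis sums, 114 to 166 CPM, spanned both mutants. Among all genes tested 14% were higher in bcl7ab and 12.5% lower. Calls fell to 2 for stomatal genes without swi3d library 3 or bcl7ab library 2, to 1 for endodermis genes without bcl7ab library 2, and to 1 for root hair genes without any of 4 single libraries. The smallest p an exact permutation test of 3 against 3 libraries allows is 0.1, which each of these 4 sums gave, two-sided. The part of cell makeup in the gene groups above was not tested.

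**Figure D4:**
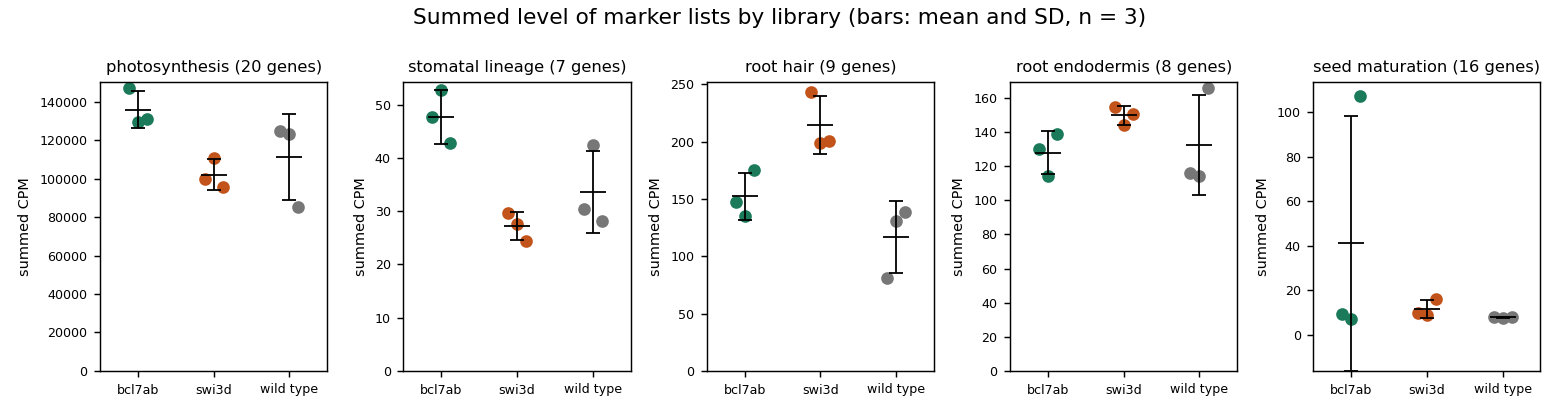
Summed CPM (y axis) of 5 marker lists in each library of bcl7ab, swi3d and wild type, with bars for mean and SD, n = 3. Photosynthesis and stomatal sums are higher in every bcl7ab library than in any swi3d library, root sums are lower, and a single bcl7ab library, at 107 CPM, sets the seed maturation mean.

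Clock genes divided: 5 of 18 were higher in bcl7ab and 8 lower, where 14% and 12.5% of all genes tested were. LHY, a morning gene, was at 5.09, 5.57 and 7.97 CPM against 2.26, 4.35 and 3.15, and RVE8 at 7.07 ± 1.48 against 4.25 ± 0.543. Lower in bcl7ab were the evening genes LUX, at 39.9, 37.2 and 39.1 CPM against 62.8, 64.8 and 53.6, and ELF4, at 5.26 ± 0.674 against 9.98 ± 2.38. COR27, a cold-induced clock gene, was at 4.67, 3.70 and 3.19 CPM against 16.65, 16.1 and 17.8. No source used here gives the time of day of harvest. The lower count was 5 without swi3d library 2 or bcl7ab library 3, and the higher count 3 without swi3d library 1 or bcl7ab library 1.

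Cell wall loosening genes also went both ways, with 4 of 21 higher in bcl7ab and 8 lower (all genes tested: 14% and 12.5%). The expansin genes EXPA1 and EXPA8, whose products loosen walls, were at 477 ± 55.6 CPM against 196.5 ± 25.4 and at 317 ± 44.5 against 138 ± 12.0. EXO, a brassinosteroid-responsive growth gene, was at 95.7, 98.7 and 105 CPM in bcl7ab against 255, 340 and 489 in swi3d, and XTH19, a wall-remodelling enzyme, at 27.8 against 73.6, means of 3 libraries each.

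Leaf growth and polarity genes were higher in 8 of 25 members and lower in 3, a share near the 12.5% of all genes, the latter count 1 without any of swi3d libraries 1 and 2 and bcl7ab libraries 1 and 3. YAB3, a factor of the lower leaf side, was at 43.3, 40.25 and 42.6 CPM against 27.6, 26.7 and 27.5, and GRF8 at 2.53, 1.66 and 3.80 against 0.564, 0.441 and 0.553. KAN1, also of the lower side, was lower in bcl7ab, at 15.98 ± 1.68 CPM against 22.6 ± 0.915. Among floral genes, the repressor TEM2 was at 205.5, 154 and 224 CPM against 53.65, 70.8 and 66.1, and the organ identity gene SEP3 at 4.64, 6.17 and 7.18 against 14.75, 15.7 and 21.2. Of 14 floral repressors 5 were higher in bcl7ab and 3 lower (all genes tested: 14% and 12.5%), turning to 1 and 5 under scaling by library totals. Without bcl7ab library 1 or swi3d library 1 the higher count was 1, and in the fit of 3 genotypes 2.

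Of 11 early stress regulators 4 were higher in bcl7ab than in swi3d and 0 lower. The higher count was 2 without swi3d library 1 or bcl7ab library 3. Against wild type 1 member was higher and 4 lower in bcl7ab, with a median of -0.66. In swi3d 0 were higher and 6 lower, with a median of -1.19, so most members called against wild type were below it in either mutant. WRKY40 was at 34.4, 23.8 and 54.6 CPM in bcl7ab against 5.08, 9.29 and 13.6 in swi3d. WRKY70, from the salicylic acid list, was at 33.95, 31.5 and 32.15 against 8.33, 11.9 and 16.6, with wild type at 31.4 ± 8.48. In salicylic acid defence 3 of 21 genes were higher and 2 lower, and in the cell cycle list 2 and 3 of 19, shares near that of all genes; in the anthocyanin list 1 of 19 was higher and 0 lower. Over all lists 168 of 425 tested loci were called, 87 higher and 81 lower in bcl7ab. Of all genes tested 26.5% were called, 14% higher and 12.5% lower. The lists were chosen with earlier results of these data known, so this count does not test them.

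**Figure D5:**
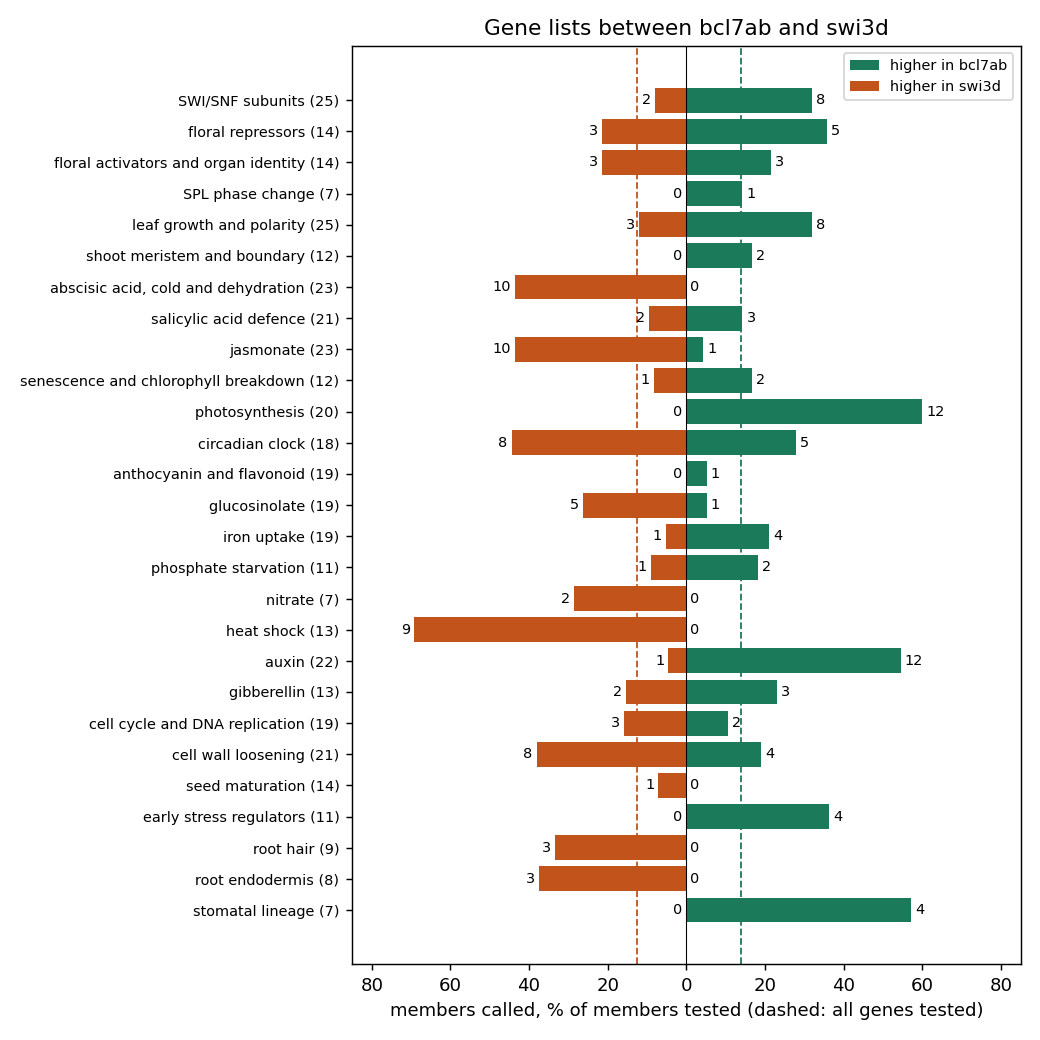
Share of tested members called higher in bcl7ab (right) or higher in swi3d (left) for 27 gene lists, in % of members, with counts at the bar ends, list sizes in brackets and dashed lines at the share among all genes tested. Heat shock has 9 members higher in swi3d, and auxin and photosynthesis 12 each higher in bcl7ab.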

How the data were processed

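Per the labels' protocols, a BGISEQ500 gave single-end reads of 50 bp from TRIzol-extracted total RNA. HISAT2, edgeR and TAIR10 appear without versions in the submitters' processing notes; no source used here gives the annotation, the counting step or the use of strand. The deposited values are a normalized signal of the form of edgeR pseudo-counts. Whole reads were recovered by inverting that adjustment at a dispersion of 0.0127 shared by all genes: 99.999% of 1171728 values came out whole within a relative tolerance of 1e-04, leaving 11.

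Because the values are not raw counts, the main test was limma 3.58.1 (R 4.3.3) on log2(value + 1), trend on, fitted to 36 libraries together with a term per genotype, for 23297 genes averaging 1 or more; the pseudocount understates changes of low genes. The Benjamini-Hochberg adjustment ran over all genes tested in a comparison. edgeR 4.0.16 called 6037 genes on the recovered reads and DESeq2 1.42.0 called 6211. Other alternatives were median-ratio scaling (over the 20622 genes with a read in every library), library totals, filters, pseudocounts, a 2-fold threshold, the replicate number as a block, smaller fits and leaving out each library. The procedure was tested on simulated data in which only a small set of genes was changed, in bcl7ab alone. That setting does not address how the calls depend on scaling.

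Named genes were the mutated and subunit genes, the 12 largest differences each way among called genes with a symbol, libraries not overlapping and a mean of at least 2 CPM over the mutants and wild type, the 5 each way with the largest CPM difference among called genes with a symbol and libraries not overlapping, the 5 each way called in opposite directions against wild type, and list members. The members and the 27 lists were chosen with earlier results of these data known. All 32548 loci matched a RefSeq table of TAIR10.1; names of BCL7, BRD, BRIP, SYS and MINU genes are from knowledge of the study. Near-identical genes may share reads.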

Additional observations from a re-analysis of the deposited data

Results flagged for a closer look

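In 10 genes named by the rule, bcl7ab and swi3d were each called against wild type in opposite directions, and the difference between them was tested by limma in the same fit over all genes. As the genes were chosen for that pattern, these values describe it. Higher in bcl7ab were HB4, by 2.90 on the log2 scale (1.55 against wild type in bcl7ab and -1.35 in swi3d), NAC2 by 2.26 (0.54 and -1.72), SBT3.12 by 2.11 (1.502 and -0.61), KAT1 by 2.04 (1.38 and -0.66) and ST2A by 1.97 (1.32 and -0.65). Lower in bcl7ab were COR15A, at -2.71 (-1.40 and 1.31), RLP33 at -2.41 (-1.34 and 1.07), AGO3 at -2.25 (-0.72 and 1.53), COR27 at -2.13 (-0.87 and 1.26) and LTI30 at -1.95 (-0.54 and 1.41).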

How the results depend on the processing

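Of 193 named genes called between the mutants none reversed under any alternative run; 29 lost the call under scaling by library totals, 29 in the fit of 3 genotypes, 4 with edgeR, 2 with DESeq2, 0 with median-ratio scaling and 29 to 53 when a library was left out. Scaling by library totals gave 1706 genes higher in bcl7ab than in swi3d and 5382 lower, and 2115 higher and 6232 lower in bcl7ab than in wild type; it moved the median of all genes by -0.15 and -0.16. SYD, not called, turned to -0.0199. Requiring 2-fold left 1386 genes between the mutants (487 higher, 899 lower), 1574 for bcl7ab against wild type (596 and 978), 1321 for swi3d against wild type (670 and 651) and 66 list members. The fit of only swi3d and wild type gave 1664 higher. Leaving out single libraries gave 2127 to 2814 genes higher in bcl7ab, lowest without bcl7ab library 1, and 1994 to 2512 lower. The seed maturation sum ranged from -0.53 to 2.31 (log2 ratio), reversed without bcl7ab library 3. The replicate block gave 6204 genes; same-numbered libraries of the mutants had deviations correlated at 0.008, 0.028 and 0.105, and not every library correlated best with its own number, so the numbers were not taken as pairs. Median-ratio factors lay between 0.993 and 1.012, so that alternative tests little.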

Other observations

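A pair of loci without a symbol, picked after their values were seen, had larger differences than most named genes. AT3G01345 was at 43.6, 99.4 and 81.01 CPM in bcl7ab, at 0.520, 0.309 and 0.553 in swi3d and at 0.314, 0.182 and 0.355 in wild type; it was also high in swp73b, at 206 ± 3.13 CPM, and pms2ab, at 38.7 ± 6.85. AT1G64795 was at 0.149, 0.0490 and 0.141 CPM in bcl7ab and at 6.64, 5.15 and 6.59 in swi3d, with wild type at 4.95 ± 0.732; its mean was also low in other mutants, at no more than 0.0718 CPM in brm, brd1213, brip12, syd and an3, 0.356 in sys123 and 0.844 in pms2ab.

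Seed maturation genes summed to 107 CPM in bcl7ab library 3 and to 9.25 and 6.97 CPM in the other libraries of that genotype, where swi3d ranged from 9.12 to 16.3 and wild type from 7.83 to 8.06.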
